A study of Homo sapiens with 4 samples.

Results

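The genes described here are 10 genes of the integrated stress response: the transcription factors ATF4, ATF5, DDIT3 (which encodes CHOP) and ATF3, and the effectors CHAC1, TRIB3, SESN2, DDIT4, ASNS and PPP1R15A. They were chosen by name, and all 10 of them were found among the 60623 genes of the count tables. The levels come from RNA-seq of BICR10 cells, an established human line from a head and neck cancer. Cells were transduced with lentivirus carrying either a control hairpin RNA (shControl, 2 libraries) or a hairpin RNA against YEATS2 (shYEATS2, 2 libraries), and both groups were selected with puromycin. YEATS2 is a reader of acylated histones, and the comparison asks how lowering it changes the transcriptome of these cells. The paper lists 2 hairpins against YEATS2, numbered in the same way as the shYEATS2 libraries. The shControl libraries carry such numbers too, although the paper lists no numbered control hairpins. The library numbers may thus stand for hairpins or for replicates. Which hairpin was used in the shYEATS2 libraries is not given in the sources used here, so the libraries are read as a single knockdown. Effects of a hairpin other than the lowering of YEATS2 were not tested. The study describes its replicates in general terms as biological, but the labels do not say whether the libraries of a group came from separate cultures, so the p-values measure the spread between libraries, which may be technical.

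In the integrated stress response, kinases that sense amino acid shortage, misfolded protein, double-stranded RNA or lack of heme phosphorylate the translation factor eIF2, which lowers general protein synthesis. A few mRNAs with upstream open reading frames, ATF4 among them, are then translated more. ATF4 binds DNA as a dimer with C/EBP proteins at a composite C/EBP-ATF element and switches on genes for amino acid supply, redox balance and feedback. ATF4 also raises DDIT3, whose product CHOP is linked to cell death under lasting stress. PPP1R15A closes the loop by bringing a phosphatase to eIF2. Protein and phosphorylation were not measured in these libraries.

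Matches to the composite element near the start of each gene are shown first, since 7 of the 10 genes held them and ATF4, ATF5 and PPP1R15A did not. The letters searched were TGATGNAA on both strands, where N is any base, within 1000 bases on either side of the MANE Select transcription start in GRCh38. Such a match lay in 18.6% of the 19061 windows searched, in 7 of the 10 genes and at 14 positions. With C at the open position (TGATGCAA) the share of all windows fell to 3.66%, and 6 of the 10 genes kept a match, at 10 positions. The lines give 30 bases each on the strand of the gene, with the matching letters in capitals, read as TTGCATCA where the match is on the other strand. They are shown for 1 or 2 matches of each gene that had any.

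CHAC1, 209 bases before the start, chr15:40953262-40953269: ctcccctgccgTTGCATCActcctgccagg
ATF3, 203 bases before the start, chr1:212608558-212608565: cctccccgaacTTGCATCAccagtgccccc
ATF3, 21 bases before the start, chr1:212608740-212608747: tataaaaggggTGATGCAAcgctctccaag
DDIT3, 306 bases before the start, chr12:57520813-57520820: gttgccaaacaTTGCATCAtccccgccccc
TRIB3, 132 bases after the start, chr20:380892-380899: ttagctccggtTTGCATCAcccggaccggg
SESN2, 552 bases after the start, chr1:28260070-28260077: cgggacccgggTTGCATCAactggcagccg
DDIT4, 946 bases before the start, chr10:72272978-72272985: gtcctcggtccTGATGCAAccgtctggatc
ASNS, 68 bases before the start, chr7:97872469-97872476: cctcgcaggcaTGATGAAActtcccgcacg

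The TRIB3 line occurs 3 times, letter for letter, in its first exon, with 33 bases from each copy to the next. ASNS had no match with C at the open position. The windows of ATF4, ATF5 and PPP1R15A held no match, which says only that these letters are not in them. A match is a run of letters and not a measured binding site.

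**Figure D1:**
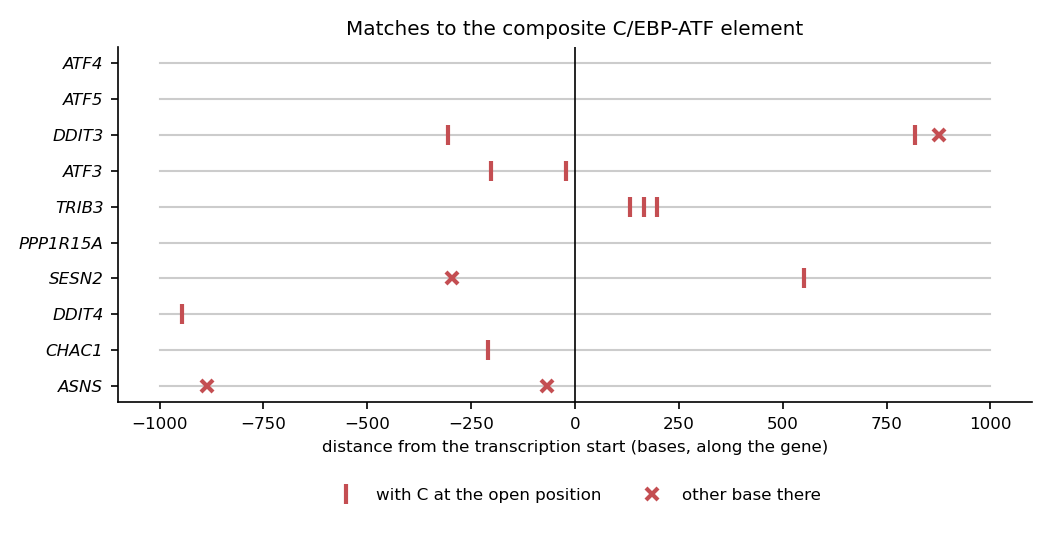
Positions of the composite C/EBP-ATF element (TGATGNAA, both strands) within 1000 bases of the transcription start of each of the 10 genes, in bases along the gene. Bars are matches with C at the open position and crosses are matches with another base there. The 14 matches fall in 7 genes, with 3 in TRIB3 after the start and none in ATF4, ATF5 or PPP1R15A.

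The libraries held 47297970 and 39824898 counts on genes in shControl and 24072396 and 11334133 in shYEATS2, so depth was lower in both knockdown libraries and cannot be told apart from the condition. YEATS2 itself stood at 66.1 and 66.7 CPM (counts scaled to a common library size, here after TMM) in shControl and at 29.3 and 29.1 CPM in shYEATS2. Its log2 fold change was -1.19 (SE 0.08, adjusted p = 3.55e-21 by edgeR's quasi-likelihood test). Of 17058 genes with enough counts to be tested, 3857 were called higher in shYEATS2 (22.6%) and 4019 lower (23.6%) at an adjusted p under 0.05. The log2 fold changes of all tested genes had a median of -0.01. Of 9 squamous epithelial markers 7 were tested, of which 5 were lower, 1 was higher and 1 was not called, with a summed level of 522.5 to 528.0 CPM in shControl and 317.2 to 342.2 CPM in shYEATS2. KRT5 fell most, at -3.79 on the log2 scale, and CDH1 was the 1 that rose, at 2.91. EPCAM lost its call with library totals alone, upper-quartile scaling, DESeq2 and limma-voom, and SFN was called higher with library totals alone, which then gave 2 higher and 4 lower. KRT8, KRT18 and SFN carried most of that level, while KRT17 and TP63 had too few counts to test and CDH1 stood at 0.335 ± 0.025 CPM (SD, n = 2) in shControl. Of 8 fibroblast markers 7 were tested, of which 6 were lower and 1, VIM (0.18), was higher, with sums of 8787 to 8837 CPM against 3928 to 4199 CPM. The fibroblast markers thus summed above the squamous markers in every library, in cells labelled as a head and neck cancer line. COL1A1 alone averaged 2796 CPM in shControl and 890.8 CPM in shYEATS2, and THY1 was near 0. Endothelial markers summed to at most 2.21 CPM and leukocyte markers to at most 0.255 CPM in any library, with CLDN5 and CD3E at 0 in all 4. In bulk RNA, fewer cells of a type and less RNA per cell cannot be told apart, and the part of these marker changes in the results was not tested.

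In shYEATS2 cells, 9 of the 10 stress response genes were higher and 1, ATF5, was lower, all at an adjusted p under 0.05 by edgeR's quasi-likelihood test over all tested genes. The share called higher among all tested genes was 22.6%, as given above. At least 2-fold rises were called in 8 of the genes, compared with 5.99% of all tested genes. Both shYEATS2 libraries lay above both shControl libraries in those 9 genes, which held for 35.3% of all tested genes. For the 10 genes the median was 1.85. The rises ran from 1.18-fold in DDIT4 to 7.83-fold in CHAC1. Summed over the 10 genes, the level was 826.7 and 814.1 CPM in the shControl libraries and 1531 and 1406 CPM in the shYEATS2 libraries.

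**Figure D2:**
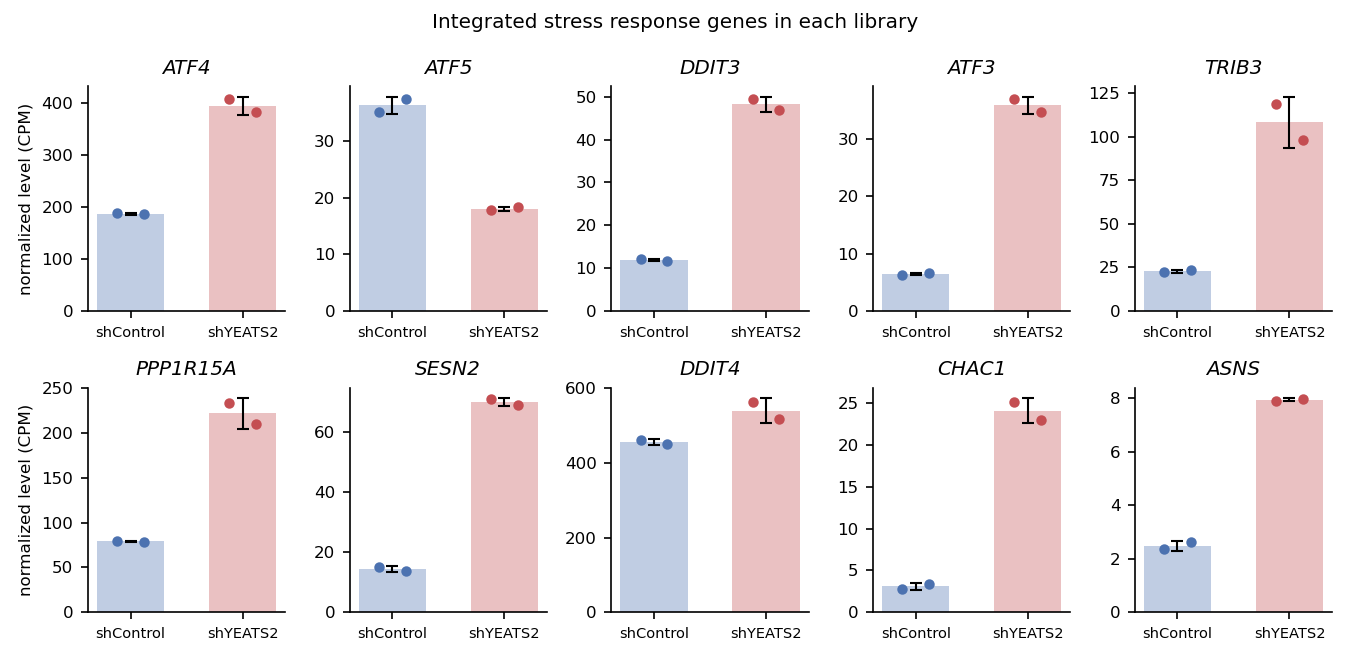
Level of each of the 10 genes in CPM, from 0, in 2 shControl (blue) and 2 shYEATS2 (red) libraries. Points are libraries, bars are means and error bars are the SD of 2 libraries. The groups do not overlap in any gene: 9 genes are higher in shYEATS2, ATF5 is lower, and the gap is smallest in DDIT4.

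Among the transcription factors, ATF4 (ENSG00000128272, chr22:39519695-39522683 in GRCh38), the central activator of the response, stood at 188.5 and 185.5 CPM in the shControl libraries and at 406.6 and 381.9 CPM in the shYEATS2 libraries. Both knockdown libraries were above both controls, and the gap within each pair was small. The means were 187.0 ± 2.15 and 394.3 ± 17.5 CPM (SD, n = 2), a log2 fold change of 1.08 (SE 0.06, adjusted p = 5.58e-25). The count tables also hold 4 ATF4 pseudogenes, which had at most 19 counts each in any library against at least 4501 for ATF4.

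DDIT3 (ENSG00000175197, chr12:57516588-57521737, minus strand) encodes CHOP, a C/EBP family protein that dimerizes with other bZIP factors. Its level was 12.04 and 11.72 CPM in shControl and 49.5 and 47.0 CPM in shYEATS2. The libraries of each group lay close together and the groups were far apart. The fold change was 4.07 (log2 2.03, SE 0.09, adjusted p = 5.36e-30). DDIT3 shares exon sequence with MARS1 and MBD6 on the opposite strand. MARS1, a tRNA synthetase and itself an ATF4 target, was higher by 0.80 on the log2 scale, with 4296 and 3580 counts in shControl and 4471 and 1799 in shYEATS2. MBD6 had 1456 and 1115 counts in shControl and 1175 and 478 in shYEATS2. The library kit was stranded, but the strand setting of the counting is not given in the sources used here. Reads of the overlaps may thus have been counted for any of these genes or set aside as ambiguous. The part of these overlaps in the DDIT3 change was not tested.

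ATF3 (ENSG00000162772, chr1:212565334-212620777), a stress-inducible bZIP factor, stood at 6.31 and 6.62 CPM in shControl. In shYEATS2 it reached 36.9 and 34.8 CPM. The lower of the knockdown libraries was well above the higher control. The rise was 5.58-fold (log2 2.48, SE 0.10, adjusted p = 2.28e-31), the second largest of the 10 genes after CHAC1.

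ATF5 (ENSG00000169136, chr19:49928702-49933935) is the closest relative of ATF4, and its translation is likewise controlled through upstream reading frames. It went the other way. Its level was 35.2 and 37.4 CPM in shControl and 17.8 and 18.3 CPM in shYEATS2. The 4 libraries formed separate pairs, with the knockdown pair below the control pair. The log2 fold change was -1.01 (SE 0.09, 95% interval -1.19 to -0.83, adjusted p = 4.79e-15), which left 49.6% of the control level. By size of rise ATF5 ranked 16284 of 17058 tested genes. NUP62, which overlaps ATF5 exons on the opposite strand, was not called at -0.12 on the log2 scale (SE 0.07, adjusted p = 0.164 by edgeR). It had 3055 and 2628 counts in shControl and 1634 and 721 in shYEATS2. The strand setting of the counting is not given, so reads of the overlap may have been counted for either gene or set aside as ambiguous. The part of this overlap in the ATF5 change was not tested. IL4I1, the other coding gene whose exons overlap ATF5, had at most 16 counts in any library.

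The effectors of feedback and signaling rose. PPP1R15A (ENSG00000087074, chr19:48872212-48876059), the regulatory subunit GADD34 of the eIF2 phosphatase, stood at 79.2 and 78.8 CPM in shControl and at 233.4 and 209.5 CPM in shYEATS2. The spread in the knockdown libraries was small beside the gap between the groups, and the rise was 2.81-fold (log2 1.49, SE 0.06, adjusted p = 8.59e-31). TRIB3 (ENSG00000101255, chr20:362835-397559), a pseudokinase that binds ATF4 and CHOP and also restrains AKT, was at 22.2 and 23.5 CPM in shControl. In shYEATS2 it was at 118.7 and 98.0 CPM. These knockdown libraries differed by 0.28 on the log2 scale, the widest gap within a group among the 10 genes, and both were still far above the controls. The TRIB3 rise was 4.79-fold (log2 2.26, SE 0.08, adjusted p = 2.58e-30).

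SESN2 and DDIT4 both restrain the growth kinase complex mTORC1, SESN2 as a leucine sensor and DDIT4 (REDD1) through the TSC complex. They moved very unequally. SESN2 (ENSG00000130766, chr1:28259518-28282491) rose from 15.0 and 13.7 CPM to 70.8 and 69.0 CPM, a 4.86-fold change (log2 2.28, SE 0.08, adjusted p = 8.8e-35). DDIT4 (ENSG00000168209, chr10:72273919-72276036) had 463.0 and 450.9 CPM in shControl and 564.1 and 517.0 CPM in shYEATS2. Its groups did not overlap, but the gap was narrow: the closest pair of libraries from the 2 groups differed by 0.16 on the log2 scale. The rise was 1.18-fold (log2 0.24, SE 0.06, 95% interval 0.13 to 0.36, adjusted p = 0.000394). DDIT4 was already the most abundant of the 10 in shControl cells.

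CHAC1 and ASNS act in metabolism. CHAC1 (ENSG00000128965, chr15:40952962-40956512) breaks down glutathione and is a sensitive readout of the ATF4, ATF3 and CHOP cascade. It had 2.82 and 3.39 CPM in shControl and 25.1 and 23.0 CPM in shYEATS2. In counts this was 128 and 128 against 636 and 271, so the knockdown libraries had more reads of CHAC1 in spite of their lower depth. The rise was 7.83-fold (log2 2.97, SE 0.13, adjusted p = 1.25e-30), the largest of the 10 genes and the 109th largest of all tested genes. ASNS (ENSG00000070669, chr7:97851677-97872542, minus strand) makes asparagine. It rose from 2.36 and 2.62 CPM to 7.89 and 7.98 CPM (3.19-fold, log2 1.67, SE 0.18, adjusted p = 1.81e-12). ASNS was the least abundant of the 10 and rested on 107, 99, 200 and 94 counts, and its SE was the largest of the 10. Its named pseudogenes had at most 5 counts each in any library.

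In order of fold change the genes ran from CHAC1 over ATF3, SESN2, TRIB3, DDIT3, ASNS, PPP1R15A, ATF4 and DDIT4 to ATF5. From ATF3 to PPP1R15A the 95% intervals of direct neighbours in this order overlapped, so the intervals do not order neighbours there. No test between genes was run. The intervals of ATF3 and TRIB3 overlapped too, as did those of SESN2 and DDIT3. Some genes further apart did not overlap: the interval of ATF3 lay above those of DDIT3, ASNS and PPP1R15A, and the interval of PPP1R15A lay below those of SESN2, TRIB3 and DDIT3. CHAC1 (2.71 to 3.23 on the log2 scale) lay just above ATF3 (2.27 to 2.69). ATF4 (0.96 to 1.20) lay below PPP1R15A (1.36 to 1.62), and DDIT4 and ATF5 lay apart from all others. In all 10 genes the smallest difference between a knockdown and a control library was larger than the largest difference within a group. The share of all tested genes with such a gap was not counted, so this is not read as a trait of the 10. In 8 of the 10 genes shYEATS2 2, the shallowest library, was below shYEATS2 1.

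**Figure D3:**
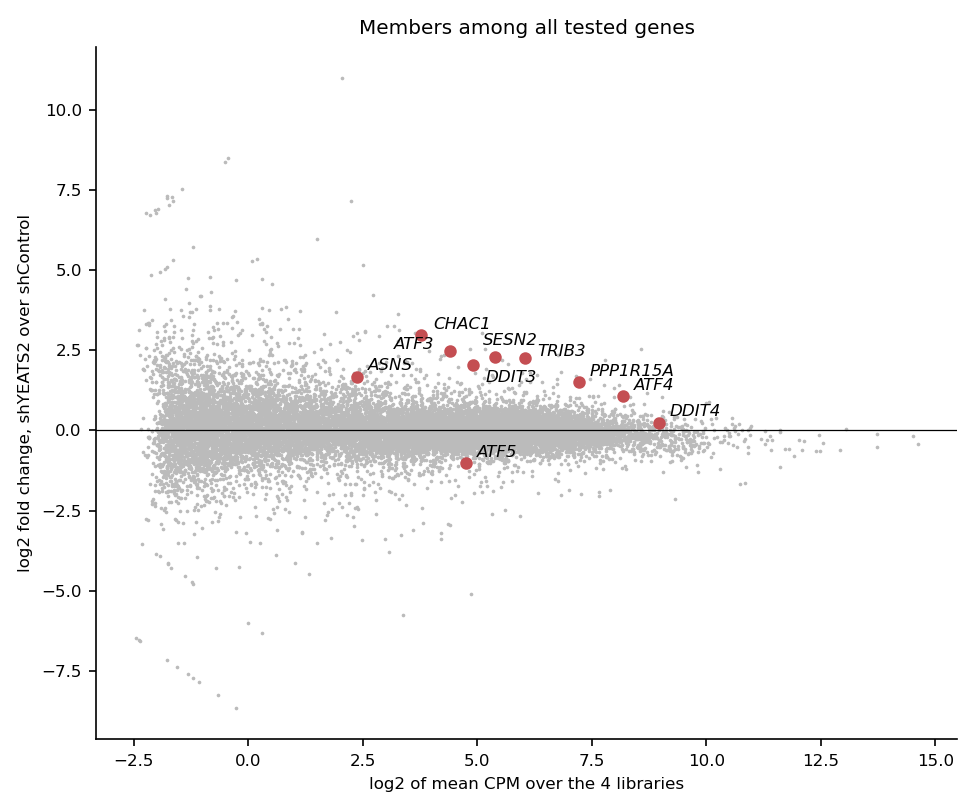
Log2 fold change (shYEATS2 over shControl) against the log2 of the mean CPM over 4 libraries, for all 17058 tested genes (grey) and the 10 stress response genes (red). CHAC1, ATF3, SESN2, TRIB3 and DDIT3 lie above 2 on the log2 scale, DDIT4 lies near 0 at the right, and ATF5 lies below 0.

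Levels between genes were compared per length, as TPM (counts divided by exon length and scaled to a common total). In shControl cells DDIT4 was highest at 647.5 TPM, ahead of ATF4 at 214.8, PPP1R15A at 69.0, ATF5 at 37.7, DDIT3 at 27.3, TRIB3 at 20.8 and SESN2 at 12.5 TPM. ATF3 (4.85 TPM), CHAC1 (4.54 TPM) and ASNS (1.53 TPM) were lowest, and the ATF3 and CHAC1 libraries overlapped. In shYEATS2 cells DDIT4 (885.9 TPM), ATF4 (523.7 TPM) and PPP1R15A (224.0 TPM) kept the first 3 places. DDIT3 (128.1 TPM) and TRIB3 (114.4 TPM) came next, with overlapping libraries, and SESN2 (70.1 TPM), CHAC1 (40.7 TPM) and ATF3 (31.1 TPM) followed. ATF5 went from place 4 in shControl to place 9 in shYEATS2, at 21.7 TPM, and ASNS was last at 5.62 TPM. TPM values are used here only for the order of the levels within a group, and the fold changes rest on the count model.

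Each member was set beside its paralogs, which share its protein family but are less known as stress response genes. Of 9 paralogs tested, 6 were higher (66.7%), 2 were lower and 1 was not called, with a median log2 fold change of 0.31. Of all tested genes 22.6% were higher and 23.6% lower. Among the relatives of TRIB3, TRIB1 was higher by 1.13 (SE 0.10) and TRIB2 by 0.31 (SE 0.08) on the log2 scale, both less than the 2.26 of TRIB3. Of the other sestrins, SESN3 was higher by 0.76 (SE 0.17), while SESN1, known as a p53 target, was lower at -0.31 (SE 0.12, adjusted p = 0.0314 by edgeR), a call that was lost with library totals alone (-0.17) and with DESeq2. PPP1R15B, the phosphatase subunit that is present without stress, was higher by 0.48 (SE 0.06). CHAC2 was higher by 0.47 (SE 0.11) and JDP2, the relative of ATF3, by 0.24 (SE 0.07). DDIT4L was lower at -1.95 (SE 0.46) from a low level, with 1.01 and 1.53 CPM in shControl and 0.316 and 0.339 CPM in shYEATS2. ASNSD1, which resembles ASNS, was not called at -0.17 (SE 0.11, adjusted p = 0.193 by edgeR). Apart from the pair ATF4 and ATF5, the interval of each member that rose and has a listed paralog lay above those of its paralogs.

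**Figure D4:**
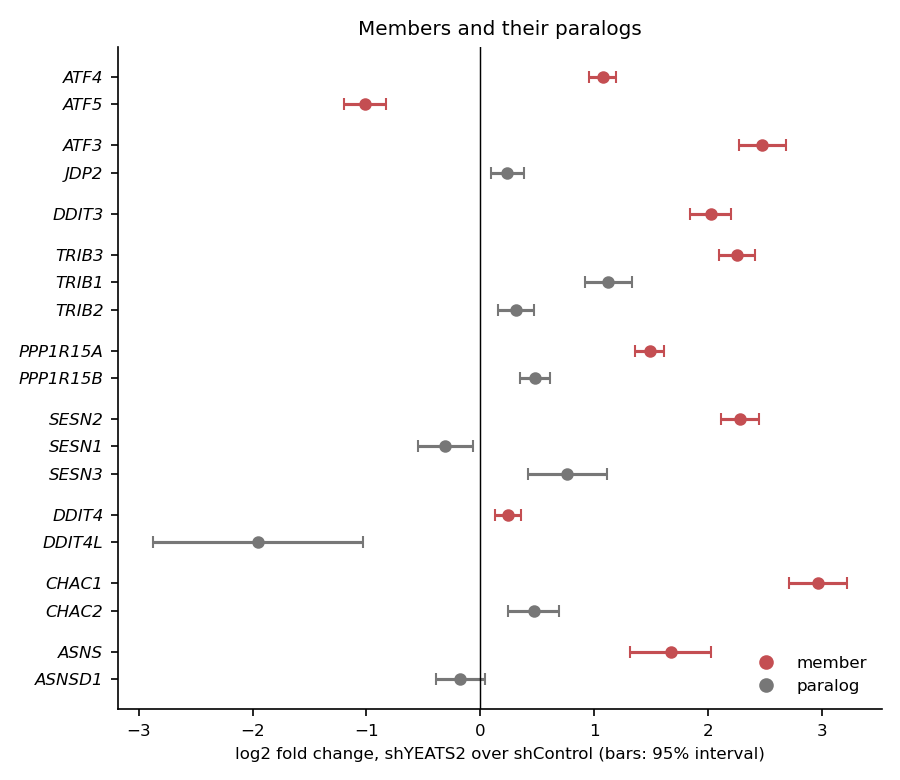
Log2 fold change (shYEATS2 over shControl) with its 95% interval for the 10 genes (red) and their paralogs (grey), grouped by family. TRIB3, PPP1R15A, SESN2, CHAC1, ASNS and ATF3 lie to the right of their paralogs, ATF5 lies to the left of ATF4, and DDIT4L has the widest interval.

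The genes upstream of ATF4 changed little in mRNA, with log2 fold changes from -0.25 to 0.11 in 8 eIF2 kinases and their regulators. By edgeR none of the 8 was called higher, also at an unadjusted p under 0.05, and 2 were called lower (4 unadjusted), with a median of -0.09. Over all tested genes 22.6% were higher and 23.6% lower, so the share lower among the 8 was near that of all genes. DESeq2 and limma-voom also called none higher and 2 lower. With library totals alone in place of TMM scaling 3 were higher and none lower, so the direction of these small changes depends on the scaling. Of the kinases, EIF2AK3 (PERK, which senses misfolded protein in the endoplasmic reticulum) was at 0.07 (adjusted p = 0.478 by edgeR) and EIF2AK1 (HRI, the heme-regulated kinase) at 0.00 (adjusted p = 0.975). EIF2AK4 (GCN2, which senses uncharged tRNA) was lower at -0.24 (adjusted p = 0.00114) and EIF2AK2 (PKR, which senses double-stranded RNA) at -0.25 (adjusted p = 0.000994). mRNA levels of a kinase do not give its activity, which was not measured. Of 12 genes of eIF2, eIF2B and the eIF2 phosphatase, 4 were higher (33.3%), 3 lower and 5 not called, with a median of 0.03. The share lower was again near that of all tested genes. EIF2S2 (0.38) and EIF2B4 (0.31) were among those higher, and EIF2S1 (-0.33), whose product is the subunit that is phosphorylated, and EIF2B5 (-0.32) among those lower. With library totals alone 6 were higher and 1, EIF2S1, was lower. DESeq2 called 2 higher and 3 lower, and EIF2B4 was among those that lost their call.

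Known targets of ATF4 outside the 10 genes were mostly higher. In 4 lists together, 44 of 47 genes were tested, 37 were higher, none was lower and 7 were not called by edgeR, with a median log2 fold change of 0.70 against -0.01 for all tested genes. At an unadjusted p under 0.05, 1 was lower. DESeq2 called 37 higher and none lower, and limma-voom 37 higher and 1 lower. At least 2-fold rises were called in 16 of them, compared with 5.99% of all tested genes. The counts here and in the single lists below stand beside 22.6% higher and 23.6% lower among all tested genes. For serine, proline, cysteine and one-carbon synthesis, 8 of 10 tested genes were higher, with a median of 0.86. The named rises are MTHFD2 (1.59), a mitochondrial folate enzyme, PSAT1 (1.40) of serine synthesis and ALDH1L2 (1.33), also of mitochondrial folate metabolism. PHGDH, which opens the serine pathway, was not called at -0.17 (adjusted p = 0.2 by edgeR), a gene singled out after its value was seen.

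For amino acid transport, 7 of 8 tested genes were higher, with a median of 0.51. SLC1A4 (2.06), which carries serine and alanine, SLC6A9 (1.74), a glycine transporter, and SLC7A5 (1.17), the light chain of the leucine transporter, rose most among those named by the rule. SLC7A11, the cystine transporter, was singled out after its values were seen, since it was the tested transporter that was not called: it had 757.0 and 801.9 CPM in shControl and 728.2 and 825.7 CPM in shYEATS2, with overlapping groups and an interval of -0.13 to 0.11 on the log2 scale. For tRNA charging, 11 of 13 genes were higher and 2 were not called, with a median of 0.59, led by the synthetases AARS1 (1.04), GARS1 (1.03) and SARS1 (0.94). Of 13 tested secreted and other targets, 11 were higher, with a median of 1.01. ADM2 (3.03) and STC2 (2.54), both secreted hormones, and GADD45A (2.20), a growth arrest gene, were the largest named. GDF15, a secreted stress cytokine under the level set for naming, was added after its values were seen: it went from 1.57 and 1.30 CPM to 18.7 and 17.1 CPM, a log2 fold change of 3.64.

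**Figure D5:**
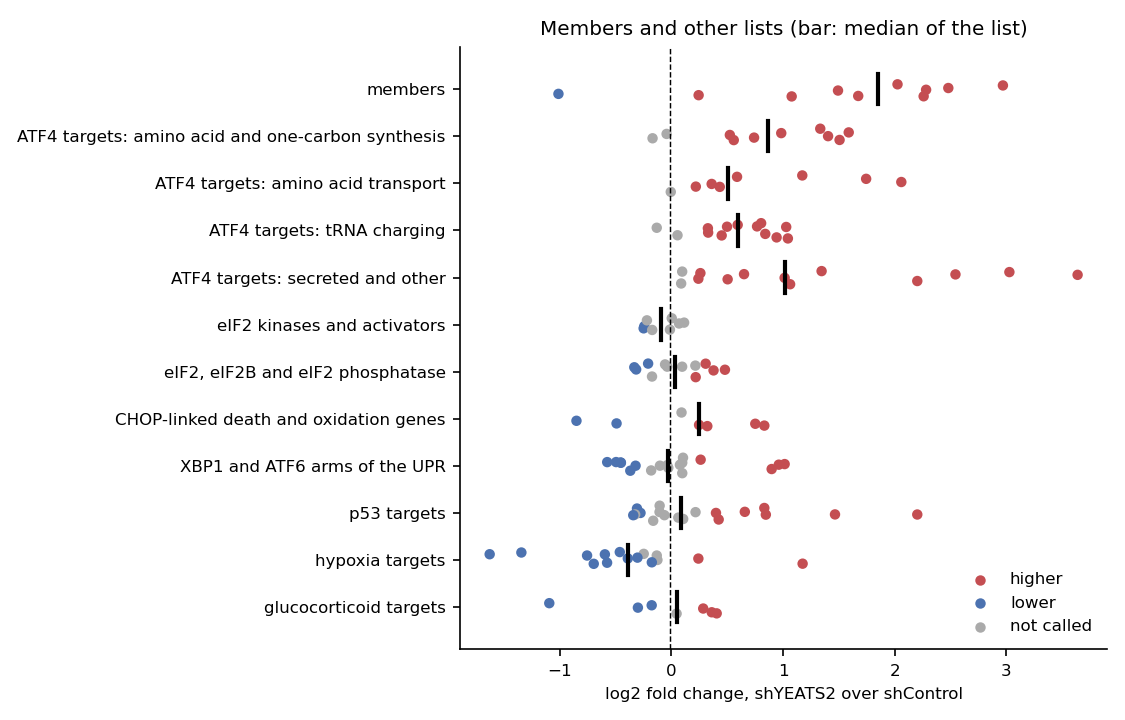
Log2 fold change (shYEATS2 over shControl) of each tested gene in the 10 members and 11 other lists, colored by call at an adjusted p under 0.05; black bars are list medians and the dashed line is the median of all tested genes. The members (median 1.85) and the ATF4 target lists (medians 0.51 to 1.01) lie to the right, while the eIF2 kinases, the XBP1 and ATF6 genes and the p53 targets scatter around 0 with TMM scaling and the hypoxia targets lie to the left.

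Other branches can reach some of the 10 genes too, and their lists were counted in the same fit, to be read against the 22.6% of all tested genes that were higher and the 23.6% that were lower. The XBP1 and ATF6 arms of the unfolded protein response, which raise chaperones of the endoplasmic reticulum, had 4 of 18 genes higher (22.2%, near the share of all tested genes) and 6 lower, with a median of -0.03 (8 higher and 6 lower with library totals alone). HERPUD1 (1.01), also an ATF4 target, XBP1 (0.96) and the chaperone HSPA5 (0.90) were higher, and the chaperone genes PDIA4 (-0.58) and DNAJC3 (-0.50) were lower. Of 18 p53 targets, which matter here because SESN2 and ATF3 also respond to p53, 7 were higher (38.9%), 3 lower and 8 not called, with a median of 0.08 (10 higher and 1 lower with library totals alone). GADD45A (2.20), also a listed ATF4 target, TP53I3 (1.47) and CCNG1 (0.66) were higher, and XPC (-0.34) and SESN1 (-0.31) lower. BBC3, also among those higher, is in the CHOP-linked list below too, so the lists are not separate. CDKN1A, the cell cycle inhibitor most used as a p53 readout, was singled out after its value was seen: it was not called at 0.11 (adjusted p = 0.216 by edgeR) but was called higher, at 0.24, with library totals alone.

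DDIT4 also responds to hypoxia and to glucocorticoids. Of 15 hypoxia targets 10 were lower, 2 higher (13.3%) and 3 not called, with a median of -0.39. The number lower was 8 with library totals alone (median -0.26) and 8 with DESeq2, with 2 higher in both. CA9 (-1.34), a carbonic anhydrase, and PDK1 (-0.76), which restrains pyruvate oxidation, were lower, and ANGPTL4 (1.18) and VEGFA (0.24), which is listed as an ATF4 target too, were higher. Of 7 glucocorticoid targets, 3 were higher (TSC22D3 0.41, SGK1 0.36, KLF9 0.28), 3 were lower, among them ZBTB16 (-1.09) and PER1 (-0.30), and 1 was not called. With library totals alone 4 were higher and 1, ZBTB16, was lower, and PER1 was no longer called.

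Of 7 CHOP-linked genes of cell death and protein oxidation, 4 were higher (57.1%), 2 lower and 1 not called, with a median of 0.25. PMAIP1 (0.75), which encodes the death-promoting protein NOXA, TNFRSF10B (0.32), a death receptor, and MCL1 (0.25), which protects from death, were higher. BCL2L11 (-0.85), which encodes the death-promoting BIM, and ERO1A (-0.49), an oxidase of the endoplasmic reticulum, were lower. Among 24 tested bZIP factors that can pair with ATF4, CHOP or ATF3 or belong to the same family, 13 were higher (54.2%), 4 lower and 7 not called, with a median of 0.25. CEBPG (1.35), a dimer partner of ATF4, XBP1 (0.96) and FOSL1 (0.60) were higher, and ATF6B (-0.26) and JUND (-0.25) lower. CEBPG and CEBPB, both among those higher, are also in the ATF4 target lists, and XBP1 is also in the unfolded protein response list. The falls of ATF6B and JUND were not called with library totals alone, where 15 factors were higher and 1 lower.

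The composite element was then read against the fold changes of all genes. Of 12817 tested genes with a window of 1000 bases on either side of their start, 24.4% were higher and 28.3% lower. Of the 406 with TGATGCAA in the window, 36.7% were higher and 19.5% lower, with a median log2 fold change of 0.12, and 10.8% were at least 2-fold higher compared with 4.77% of all those with a window. Without the 10 genes and the 4 ATF4 target lists, 374 such genes remained, of which 32.4% were higher and 21.1% lower. Their median was 0.06, and 7.49% of them were at least 2-fold higher. The element in the window was found in 37 of the 47 listed ATF4 targets with any base at the open position and in 29 with C. Of all windows 18.6% and 3.66% held it. The lists were made of known ATF4 targets, so these counts are not read as a result of these data. In the narrower RefSeq promoters of GRCh38 (250 bases before to 50 after the start), TGATGNAA lay in a promoter of 4.46% of 27305 genes and of 3 of the 10 (ATF3, ASNS and CHAC1). The ASNS and CHAC1 matches are those printed above, while the ATF3 match, at chr1:212565216-212565223, belongs to another start of ATF3 and is none of the printed ones. There the cyclic AMP response element TGACGTCA was found for 2.25% of genes and for PPP1R15A, the ER stress element for 0.0916% of genes and none of the 10, and the hypoxia core ACGTG for 24.9% of genes and for ATF4 and DDIT4. These shares describe letters in windows and were not tested.

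The 5′ leaders of the mRNAs differ in what they hold ahead of the coding sequence. Counted in the MANE Select transcripts, ATF4 and DDIT3 each had 3 upstream ATG triplets, ATF5, TRIB3 and PPP1R15A had 2 each, and SESN2 had 1. ATF3, DDIT4, CHAC1 and ASNS had none. Over 18730 transcripts with a leader, 42.6% had at least 1 upstream ATG and 23.3% at least 2. The leaders were 282 nt long in ATF4, 315 nt in ATF5, 177 nt in DDIT3 and 240 nt in PPP1R15A, with a median of 136 nt over all transcripts. ATF4 and ATF5, both with upstream ATGs and both without the composite element in the window, moved in opposite directions in mRNA. The libraries measured mRNA, and how much protein was made from it was not analysed here.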

How the data were processed

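RNA-seq was done on 4 BICR10 libraries, 2 per group. The deposited values are raw counts per Ensembl gene, which the authors made with HTSeq from stranded, paired reads after STAR alignment to GRCh38. Neither the annotation used nor the strand option of the counting is given in the sources used here. Reads outside genes or ambiguous (12.4% to 13.4% of the counts in a library) were left out. The genes described, the lists and the tests were chosen with earlier results of these data known.

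In R 4.3.3, filterByExpr kept 17058 of 60623 genes, TMM factors were computed, and the robust quasi-likelihood F-test of edgeR 4.0.16 compared the groups, with Benjamini-Hochberg adjustment over all tested genes and a threshold of 0.05. SE is the log2 fold change divided by the square root of F. TPM was computed from the counts and the exon lengths of GENCODE release 44, which held 60295 of the gene identifiers. DESeq2 1.42.0, limma-voom (limma 3.58.1), other scalings and filters, thinning to the smallest library total and leaving out each library were alternatives. The scripts were tested on simulated data.

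The text names all 10 genes, YEATS2, their paralogs and the eIF2 kinases. From each other list it names up to 3 genes of largest rise and up to 2 of largest fall that were called, had a mean of at least 10 CPM and had groups that did not overlap, and it says where a gene was named otherwise. Marker genes are named to check the label. Promoter sequences come from RefSeq and wider windows from GRCh38 at MANE Select starts. The wider window was chosen after the promoters had been searched.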

Additional observations from a re-analysis of the deposited data

How the results depend on the processing

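Under 15 alternatives, all 150 recomputed fold changes of the 10 genes kept their direction and stayed under the threshold, and all 10 genes were also called at an adjusted p under 0.01. With 1 library left out at a time (the lone library of a group is then assumed to vary like the others) ATF5 ran from -1.05 to -0.97, TRIB3 from 2.09 to 2.38 and DDIT4 from 0.17 to 0.30 on the log2 scale. DDIT4 had the largest adjusted p of the 10, 0.0329. With library totals alone in place of TMM, 5441 genes were called higher and 2567 lower, compared with 3857 and 4019, and the median of all genes shifted by 0.13, so the split of calls over all genes, and the direction of small changes in the lists, depend on the scaling. ATF5 was then at -0.88 and DDIT4 at 0.38. With a 2-fold minimum, 1022 genes were higher and 631 lower, and 16 ATF4 targets and 8 of the 10 genes were higher. No pairing by replicate number was seen (2 pairs, correlation of -0.018 over all tested genes between the differences within the groups). With 2 pairs this cannot decide whether libraries of the same number shared a culture or batch. With a replicate block 9 of the 10 genes were higher and 1 lower, and 3870 tested genes were higher and 4142 lower. With 2 libraries a group no outlier can be tested, and for any single gene the smallest p of an exact permutation test is 0.333. ASNS rests on the fewest counts of the 10 genes, 94 in the shallowest library. Thinned to the smallest library total, ASNS moved from 1.67 to 1.64 and DDIT3 from 2.03 to 2.15.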
